A study of Mus musculus with 6 samples.

Results

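MafA and H3K4me3 peaks were described at 10 mouse genes of the dense-core secretory granule and of prohormone processing: Chga, Chgb, Scg2, Scg3, Scg5, Pcsk1, Pcsk2, Cpe, Ptprn and Ptprn2. The genes were selected by function, not by a measured value, from the 21887 protein-coding genes of the RefSeq table for GRCm38.p6. Every peak that touched a gene or the 50 kb on either side was kept, which gave 274 peaks, 224 of them for MafA and 50 for H3K4me3. The peaks came from CUT&RUN, in which an antibody directs a nuclease to its target in permeabilised cells and the released DNA is sequenced. The cells were MIN6, an insulin-producing beta cell line from a transgenic mouse insulinoma, with no other treatment or genotype given in the labels. An antibody to MafA was used in 2 libraries, an antibody to the histone mark H3K4me3 in 2 positive-control libraries, and a non-specific IgG in 2 negative-control libraries. The IgG libraries were not analysed here, so no value below is set against IgG directly. The labels give 1 cell line and do not say whether replicates were separate cultures, so the spread between replicates may be technical.

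Beta cells store insulin in dense-core granules together with other secreted proteins. Granins (Chga, Chgb, Scg2, Scg3) are acidic proteins that aggregate with prohormones in the trans-Golgi network and help form the granule core. Proinsulin is cut at pairs of basic residues by the prohormone convertases PC1/3 (Pcsk1) and PC2 (Pcsk2), PC2 is kept inactive in transit by the chaperone 7B2 (Scg5), and carboxypeptidase E (Cpe) trims the remaining basic residues. IA-2 (Ptprn) and IA-2beta (Ptprn2) span the granule membrane, and both are autoantigens in type 1 diabetes. MafA is a basic leucine zipper activator of the insulin genes in mature beta cells, and H3K4me3 marks the promoters of transcribed genes.

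The lists held 16020 and 16904 peaks for H3K4me3 replicates 1 and 2 and 33013 and 42747 peaks for MafA replicates 1 and 2. At the granule genes a median of 1248.5 and 441 fragments covered the summit of an H3K4me3 peak, and a median of 25 and 47 that of a MafA peak, so MafA values rest on fewer fragments and are less precise. The beta cell label was read from H3K4me3 regions within 1 kb of a gene end: 7 of 8 beta cell markers had one (all but Ins1), 1 of 6 markers of other islet cells (Gcg), and 0 of 6 markers of exocrine, duct, blood and other cells.

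The promoter windows that a MafA peak touched are shown first, because MafA fold enrichment was lower over gene starts than elsewhere, a contrast that recurs below. Each window is the RefSeq sequence of GRCm38.p6 from 250 bp before to 50 bp after the annotated start, 5′ to 3′ along the gene. Those of Chga (chr12:102554691-102554990, plus strand), Scg2 (chr1:79439977-79440276, minus strand), Scg5 (chr2:113829042-113829341, minus strand) and Pcsk2 (chr2:143545883-143546182, plus strand) were overlapped by MafA peaks of both replicates. Those of Chgb (chr2:132781392-132781691, plus strand) and Ptprn (chr1:75264159-75264458, minus strand) were overlapped in replicate 2 only. The window of Pcsk1 (chr13:75089607-75089906, plus strand) had no MafA peak and is added because it shares a motif with Chgb and Scg2. Capitals mark a cAMP response element (TGACGTCA) or, in Pcsk2, the conserved ends of a MAF recognition element (TGCNNNNNNNGCA).
Chga: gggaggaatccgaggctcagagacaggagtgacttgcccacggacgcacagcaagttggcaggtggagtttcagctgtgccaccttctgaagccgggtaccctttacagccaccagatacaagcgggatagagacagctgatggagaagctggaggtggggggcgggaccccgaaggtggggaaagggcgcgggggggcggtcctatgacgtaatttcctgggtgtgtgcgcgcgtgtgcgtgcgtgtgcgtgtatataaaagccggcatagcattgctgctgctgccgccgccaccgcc
Scg2: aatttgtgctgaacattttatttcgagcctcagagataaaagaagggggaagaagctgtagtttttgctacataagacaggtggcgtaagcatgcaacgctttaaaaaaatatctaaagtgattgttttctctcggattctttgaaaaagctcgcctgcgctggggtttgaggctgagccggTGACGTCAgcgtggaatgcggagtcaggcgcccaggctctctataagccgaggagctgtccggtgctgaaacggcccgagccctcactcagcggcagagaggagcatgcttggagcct
Scg5: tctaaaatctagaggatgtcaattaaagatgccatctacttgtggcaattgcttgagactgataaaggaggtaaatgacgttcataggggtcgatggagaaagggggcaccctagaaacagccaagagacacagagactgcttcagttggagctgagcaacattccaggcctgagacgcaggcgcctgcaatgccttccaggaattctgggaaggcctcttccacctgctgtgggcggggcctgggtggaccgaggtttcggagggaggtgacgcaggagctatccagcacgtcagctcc
Pcsk2: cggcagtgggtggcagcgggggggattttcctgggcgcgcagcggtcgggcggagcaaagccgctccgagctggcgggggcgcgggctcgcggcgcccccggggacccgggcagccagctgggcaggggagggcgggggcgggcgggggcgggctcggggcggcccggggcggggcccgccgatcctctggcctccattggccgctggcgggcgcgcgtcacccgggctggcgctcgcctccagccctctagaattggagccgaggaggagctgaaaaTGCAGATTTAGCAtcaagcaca
Chgb: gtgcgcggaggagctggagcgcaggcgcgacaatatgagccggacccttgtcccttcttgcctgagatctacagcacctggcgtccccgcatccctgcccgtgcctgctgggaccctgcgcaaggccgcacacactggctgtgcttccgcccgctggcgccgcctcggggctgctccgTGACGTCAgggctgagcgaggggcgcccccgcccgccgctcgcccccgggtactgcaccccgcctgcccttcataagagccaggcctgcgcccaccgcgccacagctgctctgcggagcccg
Ptprn: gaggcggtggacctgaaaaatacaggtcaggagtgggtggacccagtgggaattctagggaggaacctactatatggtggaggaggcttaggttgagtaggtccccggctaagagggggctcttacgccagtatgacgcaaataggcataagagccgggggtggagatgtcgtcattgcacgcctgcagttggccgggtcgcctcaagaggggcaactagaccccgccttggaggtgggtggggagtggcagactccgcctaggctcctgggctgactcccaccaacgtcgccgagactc
Pcsk1: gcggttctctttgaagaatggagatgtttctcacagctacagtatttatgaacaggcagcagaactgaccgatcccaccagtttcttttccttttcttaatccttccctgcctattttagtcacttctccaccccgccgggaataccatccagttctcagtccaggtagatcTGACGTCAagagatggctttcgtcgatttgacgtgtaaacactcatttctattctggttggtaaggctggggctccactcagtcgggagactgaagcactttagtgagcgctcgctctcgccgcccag

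All 10 windows of the 9 genes matched in the promoter table (Ptprn has 2) were searched on both strands for 3 motifs. The letters of TGCTGAC can also open a match of TGCNNNNNNNGCA, but no window held more than 1 match. Cpe had no window. The cAMP response element TGACGTCA, the binding sequence of CREB, was found in 3 of 9 genes, against 2.54% of the 17492 genes with a window. Its first base lay 72 bp before the start in Chgb, 68 bp in Scg2 and 78 bp in Pcsk1, so the 3 copies fell within the same short stretch of their promoters. The MAF core motif TGCTGAC was found in 0 of 9 genes, against 4.96% of all. TGCNNNNNNNGCA was found in 1 of 9, Pcsk2, where it began 28 bp after the start, against 8.79% of all. Only the exact letters were searched, so variants of a site were not counted. The letters describe these windows only, and no sequence was at hand for the distal MafA regions.

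Regions found in both replicates, each built by joining the peaks that overlap between the lists, numbered 73 for MafA and 23 for H3K4me3 at the 10 genes. Each of the 10 genes had at least 1 MafA region, against 66.1% of all protein-coding genes, and at least 1 H3K4me3 region, against 75.4%. A MafA region touched the gene itself in 7 of 10, against 31.7% of all, and the exceptions were Chgb, Pcsk1 and Ptprn. The granule genes were longer, with a median of 44.0 kb against 17.2 kb for all protein-coding genes. A longer gene has more room for a region, and the part of length in these shares was not tested. Of the 73 MafA regions, 5 lay over the gene start, 39 elsewhere in the gene, 14 upstream and 15 downstream. Whether a region in a gene was exonic or intronic was not determined, since the table gives gene ends only. Pcsk2, Ptprn2 and Cpe, all long genes, together held 34 of the 73. The number of MafA regions depended on the lists: it was 38 when the 16020 peaks of highest fold enrichment were taken from each list, and 44 within the genes alone. Without MafA replicate 1, the 128 peaks of replicate 2 stood alone.

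**Figure D1:**
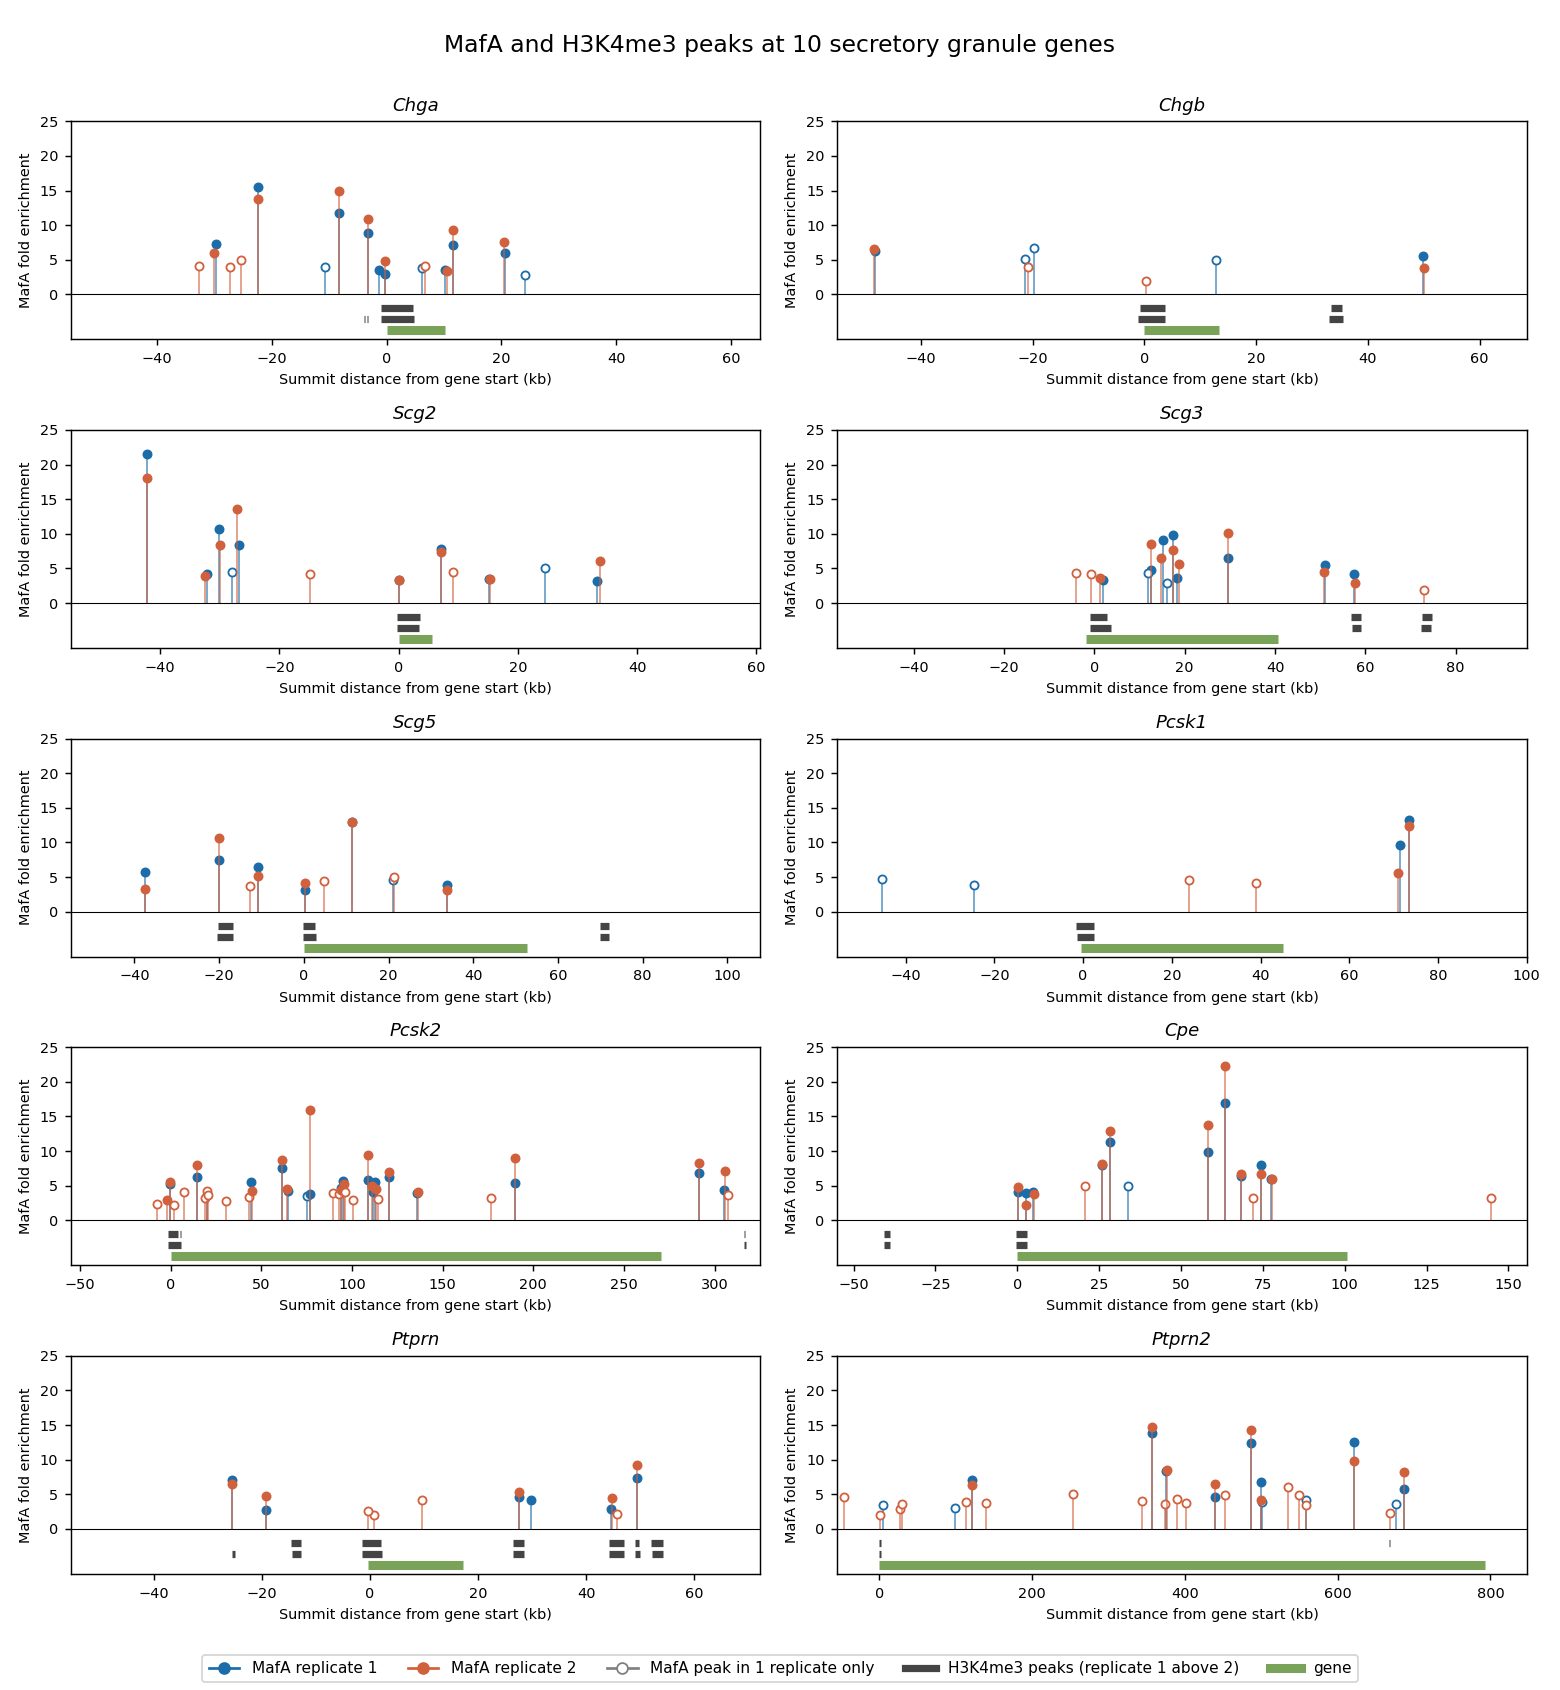
MafA summits and H3K4me3 peaks along each of the 10 genes. The horizontal axis is the distance from the gene start in kb along the gene, the vertical axis the deposited MafA fold enrichment, filled points belong to regions found in both replicates, open points to peaks of 1 replicate, dark bars are H3K4me3 peaks and the green bar is the gene. MafA regions cluster upstream of Chga and Scg2 and inside Scg3, Pcsk2 and Cpe, whereas Chgb and Pcsk1 have only 2 each, far from the start.

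Set against the length of gene and flanks, 7 of 10 genes reached the 90th percentile of protein-coding genes for MafA regions per 100 kb, a mark that 10% of all genes reach by definition. Scg2 had 8 regions, or 7.57 per 100 kb, and Chga had 8, or 7.27 per 100 kb. Scg3 followed with 5.61, Cpe with 4.99, Pcsk2 with 4.32, Ptprn with 4.26 and Scg5 with 3.93 per 100 kb. Below the 90th percentile were Chgb at 1.76, Pcsk1 at 1.38 and Ptprn2 at 0.896 per 100 kb, the last beside a median of 0.925 over all genes. Flanks can hold other genes: of the 29 MafA regions outside the 10 genes, 12 were nearest to the granule gene and 17 to another gene. Among these 17 were all 5 regions counted for Ptprn. With equal numbers of peaks from each list, 4 of 10 genes reached the 90th percentile. These counts describe the windows, and no test was made over the 10 genes. The measure of density was added after seeing the data.

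**Figure D2:**
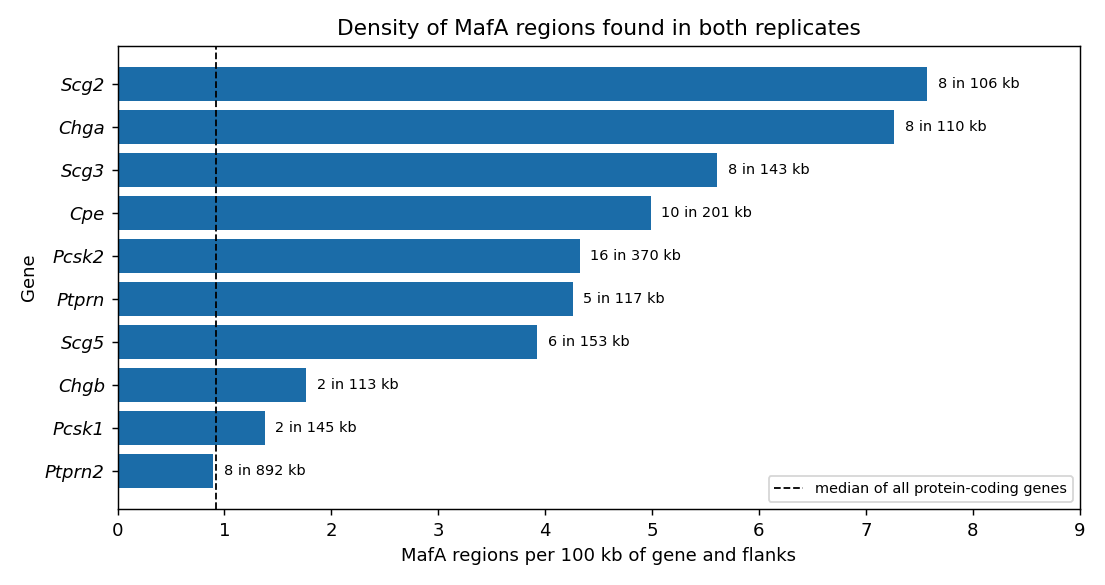
MafA regions found in both replicates per 100 kb of gene and 50 kb flanks. Bars are the 10 genes with the number of regions and window length beside them, and the dashed line is the median of all protein-coding genes, 0.925. Scg2 and Chga stand highest and Ptprn2, the longest gene, falls below the line.

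MafA peaks were narrower than H3K4me3 peaks at these genes and lay farther from gene ends. The median MafA peak width was 639 and 645.5 bp in replicates 1 and 2, or 642 ± 4.60 bp (SD, n = 2), and the median H3K4me3 width was 2303.5 and 2363 bp, or 2333 ± 42.1 bp (SD, n = 2). The difference was -1691 bp and the groups did not overlap (two-sided exact permutation test over libraries, p = 0.333, the smallest that 2 against 2 allows). A summit lay within 1 kb of an end of the granule gene for 7.29% and 7.03% of MafA peaks and for 25% and 30.8% of H3K4me3 peaks. That difference was -20.7 percentage points, again without overlap (two-sided exact permutation test, p = 0.333, the smallest possible). Both differences exceeded the spread between replicates, but the design cannot reach significance.

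An H3K4me3 region was overlapped by 12 of the 73, or 16.4% (95% Wilson interval 9.66 to 26.6%, which covers counting error only), against 23.5% of all 25894 MafA regions. With equal numbers of peaks from each list the share was 5.26%. The 12 regions had lower fold enrichment but more fragments than the other 61. Their median fold enrichment was 3.95 and 4.62 in replicates 1 and 2, against 6.45 and 6.92 elsewhere. Fold enrichment, as deposited, divides the scaled fragments covering a summit by the modelled background, after 1 is added to each. The median number of fragments was 57.5 and 144 at H3K4me3 regions, against 27 and 56 elsewhere. The modelled background was also higher there, 11.2 and 20.5 scaled fragments against 3.40 and 5. The part of the higher background in the lower fold enrichment was not tested.

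**Figure D3:**
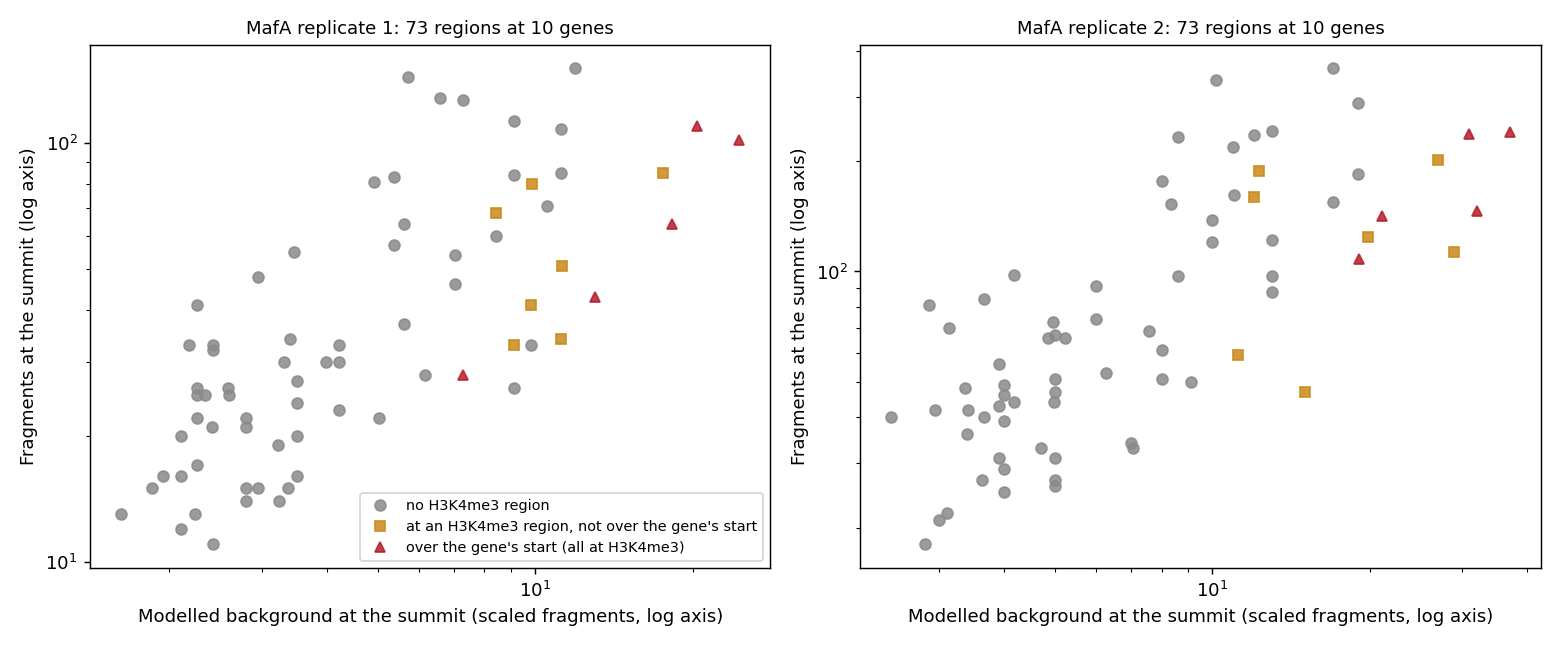
Fragments at the summit against the modelled background there for the 73 MafA regions, in MafA replicates 1 and 2, both axes logarithmic. Grey circles are regions without H3K4me3, squares overlap an H3K4me3 region away from the gene's start, and triangles lie over the start. Most of the 5 triangles sit to the right, with a median background of 18.2 and 31 scaled fragments.

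Among the granins, Chga (chr12:102554941-102565027, plus strand), the precursor of several peptides and the best-known core protein of the granule, had MafA regions on both sides. Its strongest region, chr12:102531748-102533598, lay 21343 bp upstream with no protein-coding gene closer, and had fold enrichment 15.5 in replicate 1 and 13.8 in replicate 2 (14.6 ± 1.20, SD, n = 2), from 127 and 219 fragments. That mean stood at the 94.3rd percentile of all MafA regions. A second region, chr12:102545962-102547452, lay 7489 bp upstream with fold enrichment 11.8 and 14.9 from 151 and 358 fragments. Closer to the gene, chr12:102550122-102552664, lay 2277 bp upstream with 8.91 and 10.8. These 3 regions upstream of Chga were all high in both replicates. The region over the start itself reached only 3.50 and 4.84. Its tallest peaks had summits 1198 bp apart, but a lower peak of replicate 1, with fold enrichment 2.92, had its summit 1 bp from that of replicate 2.

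Scg2 (chr1:79434366-79440026, minus strand), whose product secretogranin II is the precursor of secretoneurin, had a single MafA region over its start, with fold enrichment 3.38 and 3.33 from 64 and 146 fragments. Its strongest region, chr1:79481072-79483134, lay 41046 bp upstream and reached 21.6 and 18.1 (19.9 ± 2.43, SD, n = 2; 97.6th percentile) from 144 and 232 fragments. No protein-coding gene lay nearer to that region than Scg2. Between them, chr1:79465936-79467398 had 8.40 and 13.6, and chr1:79468796-79471316 had 10.7 and 8.44. All 7 regions outside Scg2 were nearest to Scg2. Within 10 kb of the gene the highest mean was 7.55, for a region 470 bp downstream.

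Chgb (chr2:132781642-132795079, plus strand), encoding chromogranin B, differed from Chga and Scg2 in having no MafA region in the gene or within 10 kb. Its strongest region, chr2:132732423-132733963, lay 47679 bp upstream, inside Shld1, with fold enrichment 6.21 and 6.51 (6.36 ± 0.214, SD, n = 2; 60.2nd percentile) from 27 and 51 fragments. The other, 36118 bp downstream inside Mcm8, had 5.60 and 3.78. The peak over the Chgb promoter was seen in replicate 2 only, with fold enrichment 1.98 from 126 fragments over a background of 47. In replicate 1, 2 peaks upstream of Chgb that overlapped none of replicate 2 had 5.15 and 6.76 from 15 and 20 fragments. Close to the first of them, replicate 2 had a peak of 3.93 from 20 fragments. Inside Chgb, replicate 1 alone had a peak of 4.98 from 14 fragments. A call in 1 replicate at this number of fragments does not show that the other library lacked signal.

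Scg3 (chr9:75643366-75685959, minus strand), secretogranin III, which binds cholesterol-rich granule membrane and chromogranin A, held 6 regions inside the gene. The strongest, chr9:75666354-75667245, had fold enrichment 9.83 and 7.64 (8.73 ± 1.55, SD, n = 2; 79.6th percentile) from 64 and 97 fragments. Its neighbour chr9:75668517-75669522 had 9.10 and 6.58, and chr9:75653791-75655223 had 6.47 and 10.2, so the order of these regions differed between replicates. The region closest to the start, with a summit 1270 bp inside in replicate 2, had 3.36 and 3.69.

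Scg5 (chr2:113776313-113829091, minus strand), the PC2 chaperone, had its strongest region inside the gene at chr2:113817095-113818402. Fold enrichment was 12.9 in both replicates (SD 0.00905, n = 2; 92.1st percentile) from 41 and 70 fragments, and the summit lay 11460 bp from the start in replicate 1. The region over its start had 3.14 and 4.07 from 43 and 108 fragments. A region upstream, chr2:113848487-113849400, inside the neighbouring Arhgap11a and over an H3K4me3 region, had 7.44 and 10.7 from 80 and 188 fragments. By −log10 q, which grows with the number of fragments, this last region ranked above the one inside Scg5.

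The convertases differed from each other in where MafA regions lay. Pcsk1 (chr13:75089420-75134861, plus strand) had none in the gene and 2 beyond its far end, with no other protein-coding gene nearer. The stronger, chr13:75162342-75164213, lay 27481 bp downstream with fold enrichment 13.2 and 12.3 (12.8 ± 0.601, SD, n = 2; 91.8th percentile) from 83 and 153 fragments. The other, chr13:75160107-75161912, lay 25246 bp downstream with 9.63 and 5.59. Peaks of 1 replicate in the Pcsk1 window, 2 in each, ranged in fold enrichment from 3.86 to 4.79. The nearest shared MafA summit was 70946 bp from the start of Pcsk1, while that of Pcsk2 was 402 bp away.

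Pcsk2 (chr2:143546133-143816284, plus strand) had the most regions, 16, of which 13 lay inside the gene beyond its start. The region over the start, chr2:143543967-143547505, had fold enrichment 5.20 and 5.56 from 110 and 237 fragments, the highest mean of the 5 start regions. By the mean of log2 fold enrichment the strongest region was chr2:143607326-143608097, with 7.53 and 8.71 (8.12 ± 0.833, SD, n = 2; 76.4th percentile) from 26 and 56 fragments. By −log10 q it was the start region. At chr2:143622737-143623926 the replicates disagreed, with 3.77 from 16 fragments in replicate 1 and 15.9 from 81 fragments in replicate 2. It was the only 1 of the 73 regions in which they differed by more than 2-fold, and it would lead at 15.9 without MafA replicate 1. In the Pcsk2 window, 15 of 32 peaks of replicate 2 and 2 of 18 of replicate 1 were not matched in the other.

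Cpe (chr8:64592542-64693109) held 10 regions, all in the gene. The strongest, chr8:64628884-64630592, had fold enrichment 17.0 and 22.3 (19.7 ± 3.78, SD, n = 2; 97.5th percentile) from 128 and 333 fragments. Next came chr8:64663564-64666376 with 11.3 and 12.9, and chr8:64634253-64635303 with 9.92 and 13.7. The strand of Cpe was not given in the table, and the end that carried the H3K4me3 region was taken as its start. The MafA region there had 4.03 and 4.74 from 102 and 240 fragments, over a background of 24.6 and 37. Scg2 and Cpe thus had the highest strongest regions of the 10 genes, and their means differed by less than either SD.

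Of the granule membrane proteins, Ptprn (chr1:75247035-75264497, minus strand) had no MafA region in the gene and sits among closely spaced neighbours. Its strongest region, chr1:75214384-75215285, lay 31750 bp downstream in Stk16 and Tuba4a, over an H3K4me3 region, with fold enrichment 7.32 and 9.26 (8.29 ± 1.37, SD, n = 2; 77.1st percentile) from 68 and 160 fragments. Regions in Tuba4a and Dnajb2 had 2.86 and 4.49, and 4.64 and 5.39. The remaining regions were nearest to Resp18, itself a gene of the granule lumen related to Ptprn, and had 7.03 and 6.48 at chr1:75289046-75290749 and 2.67 and 4.76 at chr1:75282609-75283753. None of the 5 was nearest to Ptprn. At its own start Ptprn had peaks of replicate 2 only: one of 2.59 over the promoter window shown above, and one of 2.08 inside the gene that touched neither of its windows.

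Ptprn2 (chr12:116485695-117278167, plus strand), the longest of the 10 genes, held 8 regions, all inside it and all more than 100 kb from its start. The strongest, chr12:116842369-116843645, had fold enrichment 13.9 and 14.7 (14.3 ± 0.594, SD, n = 2; 93.9th percentile) from 81 and 176 fragments. Then came chr12:116971364-116972256 with 12.4 and 14.3, and chr12:117106480-117108236 with 12.5 and 9.85. The Ptprn2 window also held many calls of 1 replicate: 5 of 13 peaks of replicate 1 and 16 of 24 of replicate 2. Among those of replicate 2, a peak with its summit 345 bp after the start had fold enrichment 2.08 from 77 fragments.

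**Figure D4:**
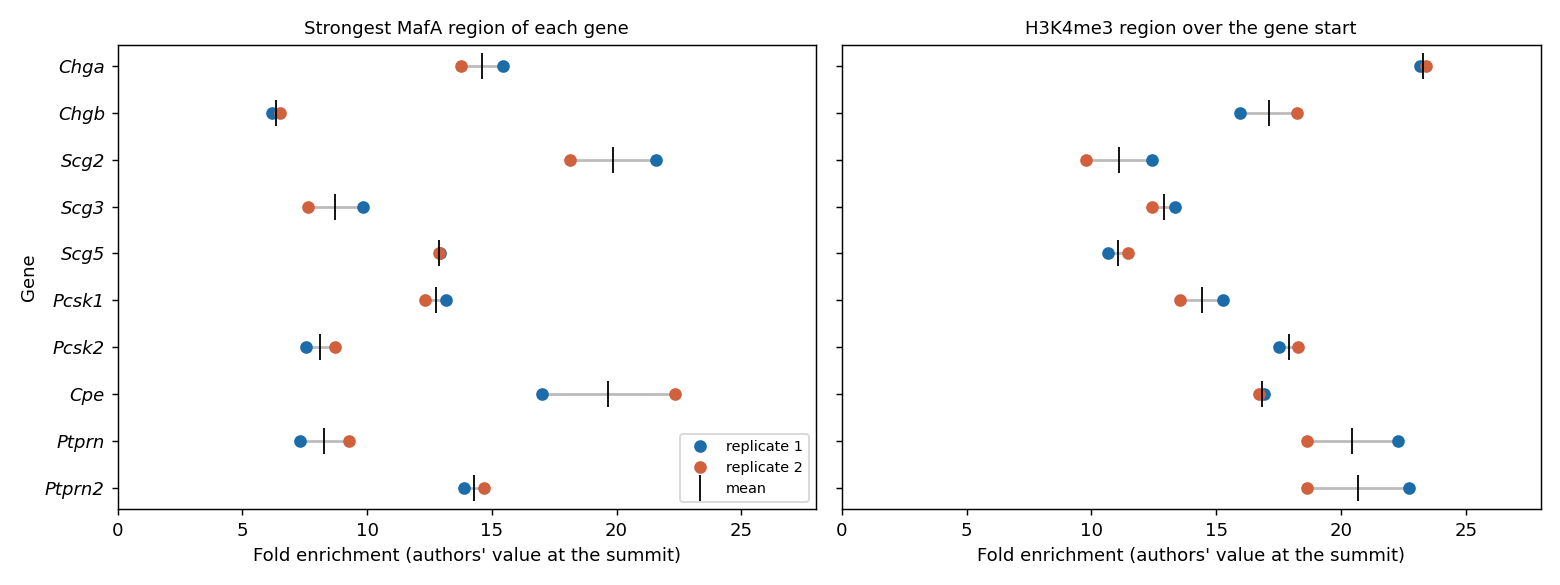
Deposited fold enrichment in replicates 1 and 2, with the mean as a vertical tick, for the strongest MafA region of each gene (left) and the H3K4me3 region over its start (right). The MafA means run from 6.36 at Chgb to 19.9 at Scg2, and the H3K4me3 means from 11.1 to 23.3, in another order of genes.

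Over the 73 regions the fold enrichment percentile among all MafA regions had a median of 62.9. At or above the 90th percentile were 9 of the 73. By definition 90% of all MafA regions lie below that mark, and whether 9 of 73 exceeds the remaining share was not tested. Values of the replicates ran together across regions, with Spearman's rho 0.751 for fold enrichment and 0.913 for fragments, both descriptions over 73 regions that share the same libraries. The summits of the replicates were a median of 78 bp apart, against 55 bp over all regions, and 31 of 73 lay within 50 bp of each other. In replicate 1, 75 of the 96 MafA peaks at the granule genes overlapped one of replicate 2, or 78.1% (Wilson interval 68.9 to 85.2%), beside 81.2% of that whole list. In replicate 2 it was 74 of 128, or 57.8% (49.2 to 66.0%), beside 60.8% of the list. Unmatched peaks were shallower at the median, with 14 fragments beside 32 for matched peaks in replicate 1, and 27.5 beside 66.5 in replicate 2. Not all were shallow: in replicate 2 they ranged from 17 to 126 fragments. The highest, over the Chgb promoter, had fold enrichment 1.98 over a background of 47. Replicate 2 had more peaks and more fragments per peak, and the part of depth in the unequal matching was not tested.

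Every granule gene with a promoter window, 9 of 9, had an H3K4me3 region over it, against 56.5% of all genes with a window. A MafA region overlapped the window in 4 of 9, Chga, Scg2, Scg5 and Pcsk2, against 17.6% of all genes and 30.4% of the genes whose window carried H3K4me3. The 5 MafA regions over starts, Cpe included, had a median fold enrichment of 3.50 and 4.74 in replicates 1 and 2, from 64 and 146 fragments. All 5 overlapped the H3K4me3 region there, which for Cpe follows from the way its start was chosen. The replicate 1 median of 3.50 is the value of Chga, taken from a peak with its summit 1402 bp before the start. The replicate 1 peak nearest the Chga start had 2.92.

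H3K4me3 over these starts was broad rather than high. The 10 regions were 2635 to 6991 bp wide with a median of 3963 bp, against 1837 bp for all H3K4me3 regions and 2111 bp for those over promoter windows. In width, 8 of 10 reached the 90th percentile of H3K4me3 regions. Of genes with a window, 7 of 9 reached it, against 14.3% of all genes with H3K4me3 over a window. The mean fold enrichment ran from 11.1 to 23.3, at the 35.2nd to 84.4th percentile with a median of 59.1.

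Pcsk2 had the widest domain, with peaks of 5590 and 6977 bp in replicates 1 and 2, of which 4276 and 5677 bp lay downstream of the start. Chga had 5446 and 5622 bp and fold enrichment 23.2 and 23.4 from 1729 and 656 fragments, the highest mean of the 10. Chgb had 4596 and 4813 bp, and Scg3 3865 and 4563 bp. The remaining domains were narrower in both replicates than those of Chga and Chgb. Pcsk1 had 4075 and 3973 bp, Scg2 3851 and 3685 bp, and Ptprn 3516 and 3579 bp. Cpe had 3218 and 3245 bp, Scg5 3036 and 3094 bp, and Ptprn2 2444 and 2635 bp. In all 10 genes and both replicates the peak reached farther into the gene than upstream of the start used. Ptprn has 2 annotated starts, and the outer one, at 75264208, was used. Measured from the other, at 75263771, its peak reached farther upstream in both replicates. Width and height did not go together in order: Ptprn2 had the narrowest domain but fold enrichment 22.7 and 18.7, while Scg2 had 12.4 and 9.79.

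**Figure D5:**
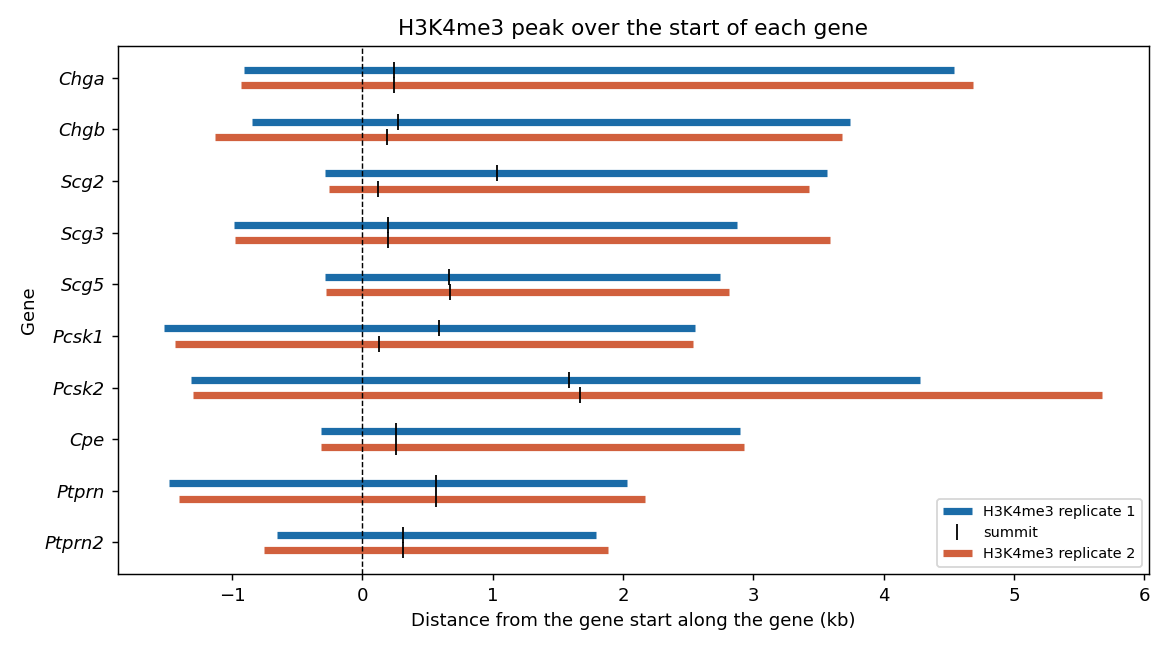
Extent of the H3K4me3 peak over the start of each of the 10 genes in replicates 1 and 2, as distance from the start in kb along the gene, with the summit as a tick. Every peak extends farther to the right, into the gene, and that of Pcsk2 is the longest in both replicates. Ptprn is drawn from the outer of its 2 annotated starts, and from the other its peak would extend farther upstream.

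The other H3K4me3 regions in the windows mostly belonged to neighbours. Of the 13 away from a start, 12 lay outside the granule gene, among them those in Tuba4a, Dnajb2, Resp18, Lysmd2 and Arhgap11a. The exception, chr12:117153654-117154661 inside Ptprn2, had fold enrichment 6.78 and 4.93. Between H3K4me3 replicates, 24 of 24 peaks of replicate 1 had a partner (100%, Wilson interval 86.2 to 100%), beside 97.7% of that whole list. In replicate 2 it was 23 of 26 (88.5%, 71.0 to 96.0%), beside 93.1% of the list. The 3 without a partner had fold enrichment from 2.76 to 4.46. All 3 lay within MafA regions, 2 of them upstream of Chga and 1 upstream of Ptprn.

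A list of 21 further genes of granule biogenesis and peptide processing was counted in the same way. Of these, 19 had a MafA region and 21 an H3K4me3 region, beside the 66.1% and 75.4% of all genes given above. Their median was 2 MafA regions and 1.86 per 100 kb. The genes without a MafA region were Furin, the constitutive convertase of the trans-Golgi network, and Qpct, glutaminyl cyclase. Of the 16 with a promoter window, 15 had H3K4me3 over it, beside 56.5% of all genes. MafA lay over it in 3 (Ica1, Cpd and Ccdc186), all of which had H3K4me3 there. This stands beside 17.6% of all genes and 30.4% of the genes whose window carried H3K4me3. Eipr1, which acts in dense-core granule biogenesis, had the highest region of the list, chr12:28816332-28817668 inside the gene, with fold enrichment 16.4 and 25.4 (20.9 ± 6.34, SD, n = 2). Ica1, a granule-associated islet autoantigen, had 12.2 and 19.8 at chr6:8667640-8669053, also inside the gene. Cyb561, the granule electron carrier, had 10.5 and 13.8 at a region 6045 bp from the gene. Pcsk5, another convertase, had 8.43 and 13.2 inside the gene. Vgf, a granin-like peptide precursor, had 9.59 in replicate 1 and a mean of 10.3 over both at a region 17358 bp away that overlapped H3K4me3.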

How the data were processed

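CUT&RUN libraries of MIN6 cells were assigned by title to IgG, MafA or H3K4me3, 2 libraries to each antibody. The IgG libraries were not used here. The authors deposited 1 narrow peak list per H3K4me3 and MafA library, made with MACS2 on GRCm38/mm10, per the submitters' processing notes. The aligner, the MACS2 version, the control library and the handling of duplicates are not given in the sources used here. The deposited fold enrichment is a ratio of pileup to modelled background at the summit, and the deposited significance is −log10 of the p- and q-value. The lowest −log10 q in each list was between 2 and 2.04. The deposited score was not used.

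Analysis ran in Python 3.11.15 with scipy 1.17.1, pandas 2.3.3 and numpy 2.4.6, and figures in matplotlib 3.10.9. Peaks sharing at least 1 bp were joined into regions found in both replicates. The strongest peak of each replicate gave a region's values, and a gene's strongest region was the one with the highest mean log2 fold enrichment. Fragments and background at each summit were solved from fold enrichment, taken as (pileup + 1) / (background + 1), and the Poisson p-value, with scaling factors of 1 and 0.746 in the MafA replicates and of 0.415 and 0.997 in the H3K4me3 replicates. These solved all peaks at the granule genes and all of 1500 peaks sampled per library. The number of fragments sets the precision: a low count leaves a fold enrichment uncertain. Total reads per library were not analysed here.

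Gene ends, promoter windows and sequences came from RefSeq tables of GRCm38.p6, and 9 of the 10 genes matched in the promoter table. Library medians and shares were compared by exact permutation over the 4 libraries. Where 2 libraries against 2 do not overlap, this permutation test gives p = 0.333 at any distance between them. The p-value therefore measures no spread. Intervals are 95% Wilson intervals. All 10 genes are named. Of the further granule genes, the 5 with the highest MafA region and those without one are named. Others are named as neighbours of a region or for a promoter overlap, after their values were seen. The genes, lists and measures were chosen with earlier results of these data known. Alternatives tried were equal numbers of strongest peaks, a −log10 q minimum of 5, 50% reciprocal overlap, other windows, merging within 1 kb, leaving out each replicate, and a replicate block. The routines were tested on simulated data.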

Additional observations from a re-analysis of the deposited data

How the results depend on the processing

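The number of MafA regions at the granule genes, 73, moved to 38 with equal numbers of strongest peaks and to 44 within the genes alone, and it was 96 and 128 with a single MafA replicate, whose peaks then stood for regions. The number of H3K4me3 regions, 23, moved to 12 with 10 kb flanks and to 11 within the genes alone. With equal numbers of strongest peaks, the share of MafA regions at H3K4me3 moved from 16.4% to 5.26%. Under the same setting the number of genes at the 90th percentile of density moved from 7 to 4. The measure of density and its alternatives were both chosen after seeing the data. Equal numbers cut the MafA lists from 33013 and 42747 to the 16020 peaks of highest fold enrichment, so fewer regions were left by construction. MafA regions at H3K4me3 had lower fold enrichment, as given above. The part of this in the lower share, and the cause of the lower density count, were not tested. Narrower windows leave out the flanks by construction. All 10 genes kept a MafA region except with 10 kb flanks, where 8 did, and within the genes alone, where 7 did. The differences in width and in distance to gene ends kept their sign under every alternative run. The replicate numbers give no pairing in the labels, and a replicate block left both values as they were, -1691 bp and -20.7 percentage points, with an exact permutation p of 0.5 in place of 0.333. Of 75 alternative values for the strongest regions, 65 moved by less than 1 SD of the replicates or not at all. That count is no measure of stability. Leaving out a replicate moves the same region by less than 1 SD by construction, and a filter on strength tends to keep the strongest region. With 2 libraries per target, shallow MafA peaks and no IgG list used here, a missing peak does not show missing signal. A search for motifs at MafA summits was not run.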

Other observations

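Gcg, the glucagon gene of alpha cells, was the only 1 of the 6 markers of other islet cells with an H3K4me3 region within 1 kb of a gene end, and Ins1 was the only 1 of the 8 beta cell markers without. Resp18 shared the Ptprn window and had 5 MafA regions in its own, or 4.71 per 100 kb. Of the further granule genes, Pam, the amidating enzyme of peptide hormones, had 9 MafA regions, the strongest at chr1:97886945-97888842 inside the gene with fold enrichment 10.2 in replicate 1 and 9.83 in replicate 2. Pcsk1n, the inhibitor of PC1/3, had 2, the stronger with fold enrichment 6.35 in replicate 1 and 3.28 in replicate 2.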
